A study of Mus musculus with 2254 samples.

Results

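A small set of mural cells of the mouse brain was chosen by the genes Rarres1, Myl1 and Angpt4. A cell was a member if it held at least 1000 CPM (a count scaled by the total of its cell) of the smooth muscle actin gene Acta2 and at least 50 CPM of Rarres1, Myl1 and Angpt4 summed. It also had to hold under 50 CPM of Pappa2 and Dmp1 summed, under 200 CPM of the endothelial genes Cldn5 and Pecam1, and under 50 CPM of the ependymal genes Ccdc153 and Tmem212. The rule found 129 members among the 2254 deposited cells, of which 2252 had at least 50000 counts and were kept. Each member was compared with the other smooth muscle cells of its plate, defined as the 1083 non-members with at least 1000 CPM of Acta2 and 500 CPM of Myh11, the smooth muscle myosin heavy chain gene. Since the counts themselves chose the members, all differences from other cells are descriptions without a test.

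The cells came from brains of adult C57BL/6 mice labelled Notch3 KO or Notch3 WT. All of them, KO and WT, carried SM22-Cre and Rosa26-stop-tdTomato, so that the SM22 promoter, active in smooth muscle, drives Cre and with it a red reporter. Cells were sorted by fluorescence into 384-well plates, with sort gates not described, and were sequenced by Smart-seq2, a full-length method without molecular identifiers. KO cells filled plates 043, 467 and 471, and WT cells filled plates 044, 468 and 469. No animal was named, so each genotype counted as 1 sample, no test between genotypes was possible, and the spread over plates is given only as a description. How the Notch3 gene was inactivated was not stated in the labels.

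Vascular smooth muscle cells wrap arteries and arterioles and set vessel width through an actin and myosin apparatus, while pericytes sit on capillaries. Notch3 is a receptor of these mural cells. Rarres1 encodes a membrane protein first found as a gene induced by retinoids, Myl1 an essential myosin light chain known from fast skeletal muscle fibres, and Angpt4 a secreted ligand of the Tie2 receptor of endothelial cells. Ptgs2 encodes the inducible cyclooxygenase, which makes prostaglandin precursors, and Gdf10 a secreted protein of the BMP family.

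Rarres1 (ENSMUSG00000049404.7) lies on chr3:67478972-67515523 on the minus strand of GRCm38, Myl1 (ENSMUSG00000061816.15) on chr1:66924295-66945404 on the minus strand, and Angpt4 (ENSMUSG00000027460.7) on chr2:151911210-151945337 on the plus strand, by GENCODE M21. Their RefSeq promoters (GRCm38.p6) are printed because these genes define the cells; each runs 5′ to 3′ from 250 bases before to 50 bases after the annotated start, and capitals mark the matches named after them. The windows are chr3:67515474-67515773 (minus), chr1:66945007-66945306 (minus) and chr2:151910957-151911256 (plus). The Myl1 window lies inside the gene span given above, so its RefSeq start is downstream of the GENCODE start.
Rarres1 promoter: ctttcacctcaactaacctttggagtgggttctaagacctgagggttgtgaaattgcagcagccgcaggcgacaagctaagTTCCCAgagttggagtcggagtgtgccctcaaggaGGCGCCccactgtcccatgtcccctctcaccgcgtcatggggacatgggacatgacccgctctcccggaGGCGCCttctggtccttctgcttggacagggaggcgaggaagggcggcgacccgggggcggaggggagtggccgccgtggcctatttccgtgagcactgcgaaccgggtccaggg
Myl1 promoter: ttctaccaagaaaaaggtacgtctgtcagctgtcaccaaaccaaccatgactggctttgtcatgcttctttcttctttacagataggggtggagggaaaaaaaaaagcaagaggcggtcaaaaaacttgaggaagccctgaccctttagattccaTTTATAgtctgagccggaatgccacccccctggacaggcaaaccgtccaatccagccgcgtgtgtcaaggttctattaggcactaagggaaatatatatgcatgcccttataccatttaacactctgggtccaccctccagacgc
Angpt4 promoter: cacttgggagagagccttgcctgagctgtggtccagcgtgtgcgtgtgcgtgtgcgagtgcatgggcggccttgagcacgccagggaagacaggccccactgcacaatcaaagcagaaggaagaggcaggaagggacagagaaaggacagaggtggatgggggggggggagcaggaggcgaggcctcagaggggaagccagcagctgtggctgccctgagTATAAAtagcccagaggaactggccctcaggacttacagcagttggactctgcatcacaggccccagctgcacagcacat

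Both strands were searched for letters known as factor sites. These were the CArG box of serum response factor, TGANTCA of AP-1, the cyclic AMP response element TGACGTCA, the site TGGGAA of RBPJ (the DNA-binding partner of Notch receptors), the GC-rich element GGCGCC and the TATA box TATAAA. Positions count from 0 at the annotated RefSeq start. Capitals in Rarres1 are an RBPJ match read on the opposite strand, from -169 to -164, and GGCGCC from -134 to -129 and from -65 to -60. Capitals in Myl1 are a TATAAA match on the opposite strand from -95 to -90, and those in Angpt4 are TATAAA from -30 to -25; no match overlapped another. The same letters occurred in 25.6% of 32851 mouse promoters for TGGGAA, 11.9% for GGCGCC and 13.6% for TATAAA. None of the windows held the CArG box, TGANTCA or TGACGTCA, which occurred in 1.63%, 7.81% and 1.79% of promoters. A match is a run of letters in a window and says nothing of a factor.

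The kept cells numbered 370 to 379 per plate, with median totals per plate of 250864 to 358168 counts. Members had a median total of 330988 counts (78441 to 724734), 4487 detected genes and 1.82% mitochondrial counts, against 286022 counts (51736 to 567393), 4220 genes and 1.85% in other smooth muscle cells. In the other smooth muscle cells, Notch3 stood at 62.1, 102 and 99.7 CPM on the KO plates, against 198, 719 and 1158 CPM on WT plates 044, 468 and 469. WT plate 044, which supplied 35 of the 41 WT members, was thus closer to the KO plates than to the other WT plates. Notch3 reads remained on every KO plate, and gene-level counts cannot show whether they come from an intact transcript.

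Smooth muscle markers were read in most members, though the choice of cells fixed part of this. Members carried Acta2 at a median of 5166 CPM (1699 to 13985), against 5582 CPM in other smooth muscle cells, and Myh11 at a median of 4492 CPM, against 3769 CPM. Tagln, which encodes the actin-binding protein SM22, had medians of 1584 and 1534 CPM. In 3 members Myh11 was nearly absent, at 2.76, 2.78 and 15.2 CPM, since the rule set no minimum for it. These 3 were KO cells with at least 50 CPM of Rarres1, from plates 043 and 467. They count in the KO shares given below. With 500 CPM of Myh11 also required of members, the mean share of members over KO plates was 10.5%, against 10.8% without this limit. Summed over the 8 smooth muscle markers, Acta2 and Myh11 among them, members reached 14420 to 19145 CPM on the plates used, against 14879 to 17027 CPM in other cells. The skeletal muscle fibre list summed to 0 to 16.9 CPM in members and 2.47 to 17.1 CPM in other cells, with Tnnt3, Tnni2, Tnnc2, Myh4 and Myh1 at 0 in all members, so Myl1 was read without the fibre programme it is known from.

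The 3 genes of the rule mostly marked different cells. Of the 129 members, 99 held at least 50 CPM of only 1 of them and 30 held at least 2. Angpt4 alone brought in 52 cells, Rarres1 alone 28 and Myl1 alone 19. Rarres1 with Myl1 brought in 15 cells, Myl1 with Angpt4 6, Rarres1 with Angpt4 4, and all 3 together 5. The members fell into 2 kinds by this count: 77 cells with at least 50 CPM of Rarres1 or Myl1, and 52 cells with Angpt4 only. This division was made after the values had been seen.

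**Figure D1:**
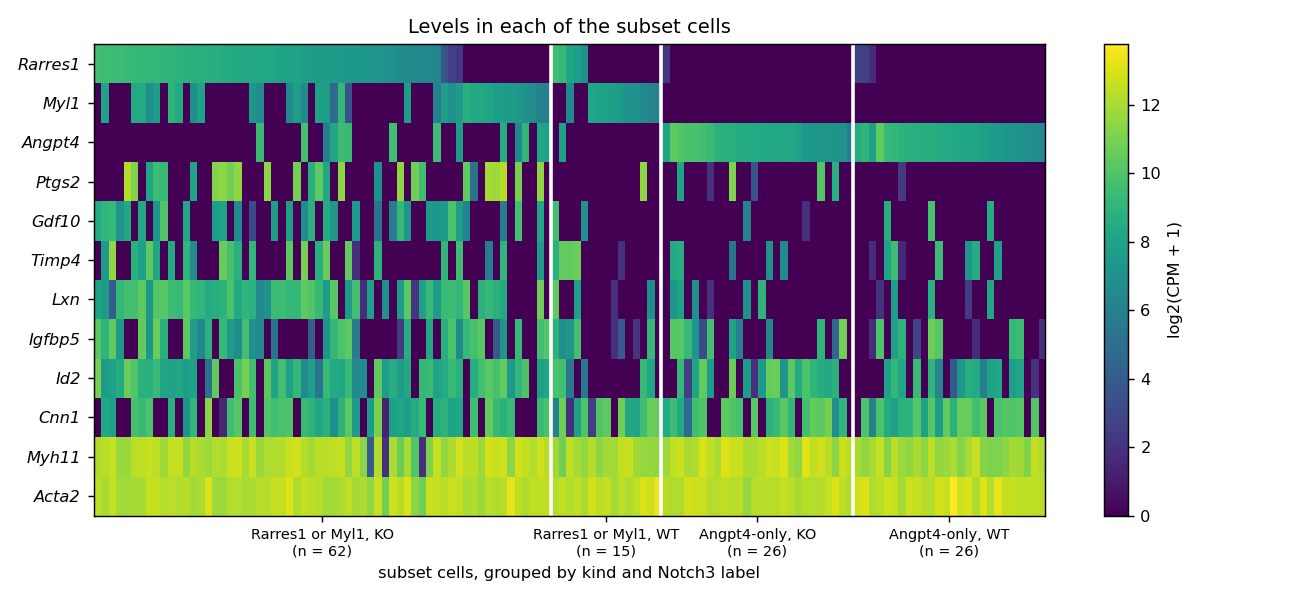
Level of 12 genes, as log2(CPM + 1) by colour, in each of the 129 subset cells, arranged by kind of cell and Notch3 label and ordered within each block by Rarres1, then Myl1, then Angpt4. Ptgs2, Gdf10 and Lxn are read mainly in the 62 KO cells with Rarres1 or Myl1, while Acta2 is high in all blocks.

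Myl1 and Angpt4 were read in a larger share of cells with Rarres1 than of cells without it. Among all 1359 cells with at least 1000 CPM of Acta2, Myl1 reached 50 CPM in 20 of the 53 cells with Rarres1 (37.7%), against 26 of 1306 cells without it (1.99%). Angpt4 did so in 10 of 53 cells with Rarres1 (18.9%), against 61 of 1306 without (4.67%). The levels were moderate beside those of contractile genes. In cells with Rarres1 or Myl1, Rarres1 had a median of 164 CPM and a maximum of 807 CPM, and Myl1 a median of 88.8 CPM and a maximum of 547 CPM. In Angpt4-only cells Angpt4 ranged over 56.8 to 1402 CPM, with a median of 321 CPM.

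The threshold separated cells with reads from cells almost without. The lowest sums of the 3 genes among members were 56.8, 68.3 and 69.3 CPM, and the highest below the threshold among cells that passed the other limits were 48.1, 48.0 and 47.9 CPM. Of the 1083 other smooth muscle cells, 1023 held no read of any of the 3 genes. Few cells therefore lay near the limit, with 9 members under 100 CPM and 7 other cells from 25 to under 50 CPM.

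Ptgs2 and Gdf10 were not used by the rule, though they had been named beside it from the same counts. Over KO and WT members together, they went with Rarres1 and Myl1 rather than with Angpt4 alone. Ptgs2 reached 50 CPM in 27 of 77 cells with Rarres1 or Myl1 (35.1%), in 4 of 52 Angpt4-only cells (7.69%) and in 30 of 1083 other cells (2.77%). Gdf10 did so in 33 of 77 (42.9%), 4 of 52 (7.69%) and 22 of 1083 (2.03%). The pattern came from the KO cells. Among KO members, Gdf10 did so in 31 of 62 cells with Rarres1 or Myl1 and 1 of 26 Angpt4-only cells, and Ptgs2 in 26 and 4. Among WT members, Gdf10 did so in 2 of 15 and 3 of 26 such cells, and Ptgs2 in 1 and 0. Median totals of all Rarres1 or Myl1 cells and all Angpt4-only cells were 330725 and 334196 counts. Their lowest totals were 145876 and 78441, with medians of 4616 and 4389.5 genes. Over all Acta2 cells, Gdf10 reached 50 CPM in 26 of 53 cells with Rarres1 (49.1%), against 35 of 1306 without (2.68%). For Ptgs2 these were 21 of 53 (39.6%), against 48 of 1306 (3.68%).

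Ptgs2 was strong in a minority of cells and absent from most, with a highest level of 5053 CPM. In summed counts of the Rarres1 or Myl1 cells it stood at 816, 47.0 and 1269 CPM on KO plates 043, 467 and 471, against 138 CPM on WT plate 044, where 1 of 13 such cells reached 50 CPM. Other smooth muscle cells of the same plates had 67.6, 15.2, 51.2 and 19.3 CPM. The WT plates 468 and 469 held no Ptgs2 read in members or in other smooth muscle cells. Gdf10 was more even, at 167, 142 and 104 CPM in Rarres1 or Myl1 cells of KO origin and 73.1 CPM in those of WT plate 044, against 9.17, 2.19, 1.79 and 3.55 CPM in other cells of these plates.

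Most members with Rarres1 also held reads of its neighbour Lxn, which encodes latexin, a carboxypeptidase inhibitor related in sequence to the Rarres1 protein. Lxn (chr3:67457998-67463926) lies on the same strand, with 15045 bases between the end of Rarres1 and its start. Lxn reached 50 CPM in 18 of 20 cells with Rarres1 and Myl1 (90.0%), in 25 of 32 cells with Rarres1 but not Myl1 (78.1%), in 10 of 25 cells with Myl1 but not Rarres1 (40.0%), in 8 of 52 Angpt4-only cells (15.4%) and in 120 of 1083 other cells (11.1%). Its exons overlap those of Gfm1 on the opposite strand, and the strand setting of the counts is not known. Gfm1 averaged 96.9 CPM in members and 62.1 CPM in other cells, a difference of 0.56 ± 0.61 log2 units that missed the size rule; how far its reads entered the Lxn count was not tested. Lxn was singled out after its values had been seen.

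Id2 and Igfbp5 reached into both kinds of cell. Id2, an inhibitor of basic helix-loop-helix factors, reached 50 CPM in 56 of 77 cells with Rarres1 or Myl1 (72.7%), in 31 of 52 Angpt4-only cells (59.6%) and in 197 of 1083 other cells (18.2%). Igfbp5, which binds insulin-like growth factors, did so in 40 of 77 (51.9%), 17 of 52 (32.7%) and 71 of 1083 (6.56%).

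Counts were then summed per plate on the 4 plates with at least 10 members, which are KO plates 043, 467 and 471 and WT plate 044. A difference is the mean over these plates of log2(CPM + 1) in members minus that in other smooth muscle cells, with its SD over plates. A gene met the size rule if the mean difference was at least 2-fold with the same sign on every plate, its mean level was at least 10 CPM and it was read in at least 10% of cells of members or of other cells. Of 9803 genes with enough reads, 162 were higher in members (1.65%) and 460 lower (4.69%), around a median difference of -0.13. The split depends on how cells are averaged: with the mean of log2(CPM + 1) over single cells, 352 genes were higher and 124 lower, of which 84 and 73 were in the first lists. The values of Rarres1 (6.70), Myl1 (5.82) and Angpt4 (6.79) are fixed by the rule.

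**Figure D2:**
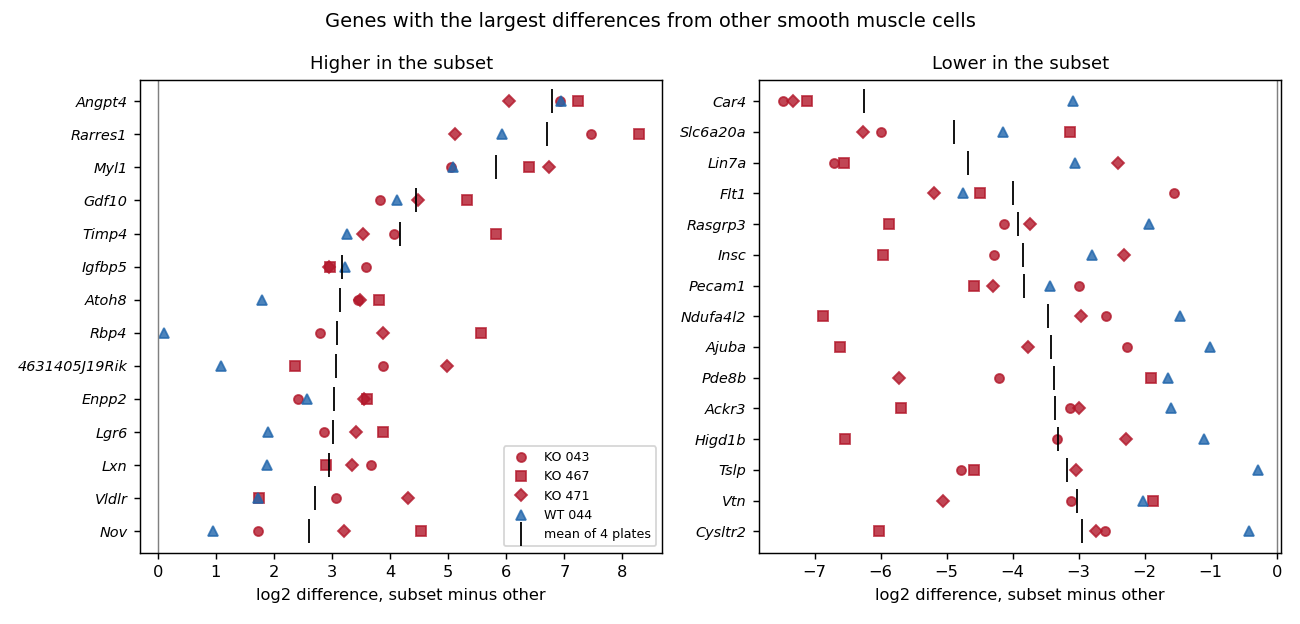
Log2 difference of members minus other smooth muscle cells on each of 4 plates (symbols, red for KO and blue for WT) and their mean (bar), for genes among the 15 largest and the 15 smallest differences that met the size rule. Igfbp5 varied little over plates, between 2.95 and 3.59, while Car4 stood at -3.08 on WT plate 044 and at -7.11 or below on the KO plates.

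Outside the genes of the rule, Gdf10, Timp4 and Igfbp5 had the largest differences among the named genes. Gdf10 averaged 103 CPM in members and 4.18 CPM in other cells, a difference of 4.44 ± 0.65, and was higher on all 4 plates. Timp4, a tissue inhibitor of metalloproteinases, averaged 289 and 14.1 CPM (4.17 ± 1.15), with exons that overlap those of Syn2, a gene with too few reads to be measured. Igfbp5 had 254, 298, 334 and 222 CPM in members of KO plates 043, 467 and 471 and WT plate 044, against 20.2, 37.5, 42.4 and 22.9 CPM in other cells of those plates. Its difference of 3.18 ± 0.30 varied less over plates than those of Gdf10 and Timp4, and on no plate did members come near the level of other cells. Enpp2, which encodes autotaxin, the enzyme that makes lysophosphatidic acid, averaged 175 and 22.2 CPM (3.03 ± 0.64). Nov, a matricellular protein, averaged 83.5 and 14.3 CPM (2.60 ± 1.59).

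Other named genes encode regulators, receptors and enzymes. Lxn averaged 271 CPM in members and 29.9 CPM in other cells (2.95 ± 0.78). Atoh8, a basic helix-loop-helix factor, averaged 58.2 and 5.77 CPM (3.13 ± 0.91), and Lgr6, a receptor for R-spondins, 65.7 and 6.68 CPM (3.01 ± 0.85). Vldlr, a lipoprotein receptor that also binds reelin, averaged 96.4 and 15.5 CPM (2.71 ± 1.24). The antisense transcript 4631405J19Rik averaged 51.3 and 5.74 CPM. Ptgs2 averaged 403 and 38.3 CPM (2.56 ± 1.30), with values on KO plates 043, 467 and 471 and WT plate 044 of 3.37, 1.41, 3.95 and 1.49.

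List counts of members against other cells, here and below, stand beside the shares over all 9803 measured genes. These were 1.65% higher and 4.69% lower, with a median of -0.13. In the list of 33 measured BMP and TGF-beta genes, 5 were higher in members and 0 lower, with a list median of 0.01. Gdf10, 1 of the 5, had been named from these same counts. Beside Gdf10 these were the receptor-activated Smad9, which averaged 25.0 CPM in members and 2.15 CPM in other cells, Id2 at 412 and 75.1 CPM (2.40 ± 0.91), the inhibitory Smad6 (1.98) and the ligand Bmp6 at 24.6 and 6.30 CPM (1.80). Id2 and Smad6 are known targets of BMP signals, but most of the list did not differ. In the retinoid pathway 2 of 11 were higher and 0 lower, with a median of 0.065: Rarres1 by rule and the retinol carrier Rbp4 at 69.2 and 4.36 CPM (3.09 ± 2.29). Rbp4 rested on the KO plates, with a difference of 0.11 on WT plate 044. The retinoic acid receptors Rara (0.37), Rarb (-0.80) and Rarg (-0.11) missed the size rule. Of 9 prostaglandin genes Ptgs2 and Pla2g4a, the phospholipase that releases arachidonic acid, were higher (2.30 for Pla2g4a, 128 CPM in members and 25.6 CPM in other cells) and 0 were lower. The prostacyclin synthase Ptgis was at 350 and 356 CPM.

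The matrix lists differed in part. Of 29 interstitial matrix genes 3 were higher and 0 lower, with a median of 0.55: Postn at 84.7 CPM in members and 12.8 CPM in other cells (2.85), Col6a1 at 244 and 55.4 CPM (2.33) and the crosslinking enzyme Loxl1 (1.71). Among 19 basement membrane genes Col18a1 at 652 and 211 CPM (1.54 ± 0.77) and the perlecan gene Hspg2 (1.06) were higher, and Col4a3 (-1.33) and Lama4 (-1.24) were lower. The fibroblast marker list held 0 of 7 genes past the rule, and summed to 1325 to 3606 CPM in members and 981 to 1804 CPM in other cells; its part in the collagen values was not tested.

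The contractile apparatus differed little. Of 28 measured genes 0 met the size rule in members against other cells, with a median of 0.02. Ldb3 (0.81) and Cnn1 (0.94) were the largest. Calponin 1, the product of Cnn1, binds actin in smooth muscle. Cnn1 averaged 600 CPM in members and 318 CPM in other cells, and it was read in 77.5% of members and 48.3% of other cells, or in 74.4% and 42.4% after each cell was thinned to 50000 counts. Its median was 465 CPM in members, against 0 in other cells. Of the 6 measured myosin light chains only Myl1 met the rule, and the 5 measured striated muscle genes had 0 past it, with Xirp1 (0.88) and Nebl (0.87) the largest. In the angiopoietin list 1 of 5 was higher, Angpt4; Angpt1 stood at 114 and 131 CPM (-0.39), and Angpt2 at 468 and 311 CPM (0.49).

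Genes known from pericytes were lower in members. Of 9 measured genes of the pericyte marker list, 5 were lower and 0 higher, and the list summed to 2569 to 4176 CPM in members and 4665 to 6725 CPM in other cells. They were Vtn, which encodes vitronectin, at 220 and 1378 CPM (-3.02 ± 1.47), Higd1b at 39.6 and 249 CPM (-3.31 ± 2.33), the potassium channel gene Kcnj8 at 12.7 and 78.2 CPM (-3.77), Ndufa4l2 at 12.7 and 89.3 CPM (-3.47 ± 2.35) and Atp13a5 (-3.84). Ndufa4l2 shares bases with Shmt2. Vtn had a median of 4.30 CPM in members and 788 CPM in other cells, so most members were nearly without it. Rgs5 (-0.66), Pdgfrb (-0.21) and Cspg4 (-0.54), which smooth muscle cells also express, missed the rule.

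Car4, a membrane-bound carbonic anhydrase, had the most negative difference of all named genes. Members held 0.399, 0 and 0.246 CPM on KO plates 043, 467 and 471 and 11.9 CPM on WT plate 044, against 249, 137, 199 and 109 CPM in other cells of these plates (-6.25 ± 2.12). The 5 members of WT plate 469, too few to enter the mean, stood apart at 217 CPM, carried by a single Rarres1 or Myl1 cell with 1029 CPM of Car4 and 3705 CPM of Vtn. Other low genes were the amino acid transporter Slc6a20a at 3.85 and 92.8 CPM, the scaffold gene Lin7a (-4.68), the Ras exchange factor Rasgrp3 (-3.92), Insc (-3.84), Ajuba (-3.42), the cAMP phosphodiesterase Pde8b (-3.37), the cytokine gene Tslp (-3.18), the leukotriene receptor Cysltr2 (-2.95) and the atypical chemokine receptor Ackr3 at 104 and 669 CPM (-3.35 ± 1.71). Pecam1 (-3.83) is limited by the rule in members alone, and Flt1 (-4.00), another endothelial gene, moves with it. Against the other cells that passed the same limits, 177 of 9709 genes were higher in members (1.82%) and 415 lower (4.27%), and Pecam1 stood at -0.39 and Flt1 at -2.66.

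Among receptors and channels that tune contraction, the genes that met the rule were lower in members. Of 33 ion channel and calcium handling genes 0 were higher and 3 lower, with a median of -0.18: Kcnj8, the chloride channel gene Ano1 at 191 and 623 CPM (-1.89) and the inositol trisphosphate receptor Itpr2 (-1.29). Of 24 vasoactive receptors and regulators 0 were higher and 3 lower, with a median of -0.31: Rgs16 (-2.54), the adenosine receptor Adora2a (-1.70) and Rgs4, a brake on G protein signals, at 1146 and 2516 CPM (-1.22 ± 0.47). Among 24 mural transcription factors Gata6 (2.05) and Foxc2 (1.16) were higher and Foxd1 (-1.34) lower. In the vessel guidance list Plxna2 (2.09) and Efnb2 (1.26) were higher and Nrp2 (-3.04) lower of 13.

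Over all members together, no immediate early, inflammation or stress gene met the rule. Of 25 immediate early genes 0 met it, although 19 differences were above 0 and the median was 0.28; Dusp6 (-1.69) and Egr1 (0.88) were the largest in size. The inflammation list held 0 of 9, with Cxcl1 (-1.18) and Socs3 (1.00) the largest in size. The growth factor list (0 of 14) and the endoplasmic reticulum and heat shock list (0 of 13) also held none, with Igf2, Pdgfa, Ddit3 and Hspa1a between -0.82 and 0.90. Of 17 hypoxia and glycolysis genes Egln3 (1.32) was higher and Higd1b lower. The Notch pathway held 0 of 13 past the rule. Its values for Maml1 (-1.63) and Hey1 (0.88) were the largest, and Notch3 itself averaged 172 CPM in members and 115 CPM in other cells (0.63 ± 0.38).

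The 2 kinds of member were then set apart. Against the same other cells, which both comparisons share, 170 of 9927 genes were higher (1.71%) and 637 lower (6.42%) in Rarres1 or Myl1 cells, and 183 of 9704 were higher (1.89%) and 1330 lower (13.7%) in Angpt4-only cells on the 3 plates that had 5 or more of them (043, 471 and 044). Gdf10 stood at 4.70 in Rarres1 or Myl1 cells and 0.56 in Angpt4-only cells, Timp4 at 4.64 and 0.00, Ptgs2 at 3.13 and -0.79, Lxn at 3.37 and 0.93, and Postn at 3.02 and -0.11. In Angpt4-only cells none of these 5 met the size rule. The 0.00 of Timp4 is a mean over plates and does not mean that its share of cells was equal. Timp4 reached 50 CPM in 10 of 52 Angpt4-only cells (19.2%), against 42 of 1083 other cells (3.88%) and 27 of 77 Rarres1 or Myl1 cells (35.1%). The most Gdf10 in Angpt4-only cells was 81.4 CPM on WT plate 044, against 0 and 4.02 CPM on KO plates 043 and 471.

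Other differences stood on the same side in both kinds. Igfbp5 was higher in Rarres1 or Myl1 cells (3.15) and in Angpt4-only cells (2.83), as was Id2 (2.47 and 1.63). Car4 was lower in both (-7.23 and -5.45), as was Higd1b (-4.27 and -1.37). Vtn was also lower, at 245 CPM in Rarres1 or Myl1 cells against 1378 CPM in other cells, and at 83.7 CPM in Angpt4-only cells against 1277 CPM (-4.70). Angpt4-only cells met the rule for the contractile genes Cnn1, at 726 CPM against 358 CPM in other cells (1.06), and Actg2, at 216 and 99.3 CPM (1.22). In Rarres1 or Myl1 cells these genes missed it, at 0.79 and -0.81. Ntf3, which encodes neurotrophin 3, was also higher in Angpt4-only cells, at 122 CPM against 36.6 CPM (1.69). Of 25 immediate early genes 3 were higher in Angpt4-only cells and 0 lower, with a median of 0.53. Of 9 inflammation genes 3 were higher and 0 lower, with a median of 0.55. Over all genes the shares in this comparison were 1.89% higher and 13.7% lower, with a median of -0.33. In Rarres1 or Myl1 cells 0 genes of either list met the rule, with medians of 0.19 and -0.75.

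**Figure D3:**
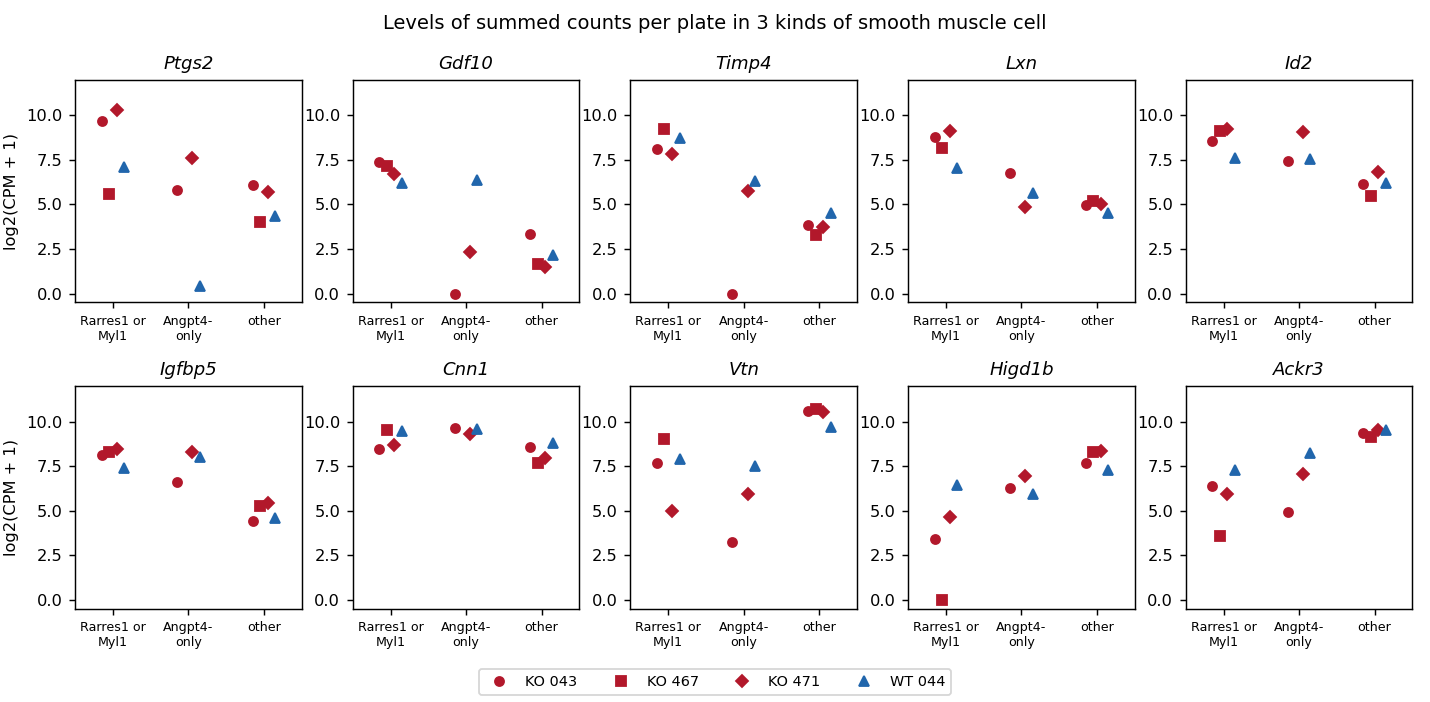
Level of 10 genes in summed counts per plate, as log2(CPM + 1), in Rarres1 or Myl1 cells, Angpt4-only cells and other smooth muscle cells (red for KO plates, blue for WT plate 044; plates with at least 5 cells of a kind). Id2 and Igfbp5 are up in both kinds of member and Vtn and Ackr3 down. Timp4 and Lxn are highest in the first kind, and so is Gdf10 on the KO plates but not on WT plate 044.

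Set directly against Angpt4-only cells on plates 043, 471 and 044, Rarres1 or Myl1 cells had 1018 of 9845 genes higher (10.3%) and 491 lower (4.99%). Some plates hold as few as 5 Angpt4-only cells, and the spreads over plates are wide. Lama2, a laminin chain gene, averaged 78.4 CPM in Rarres1 or Myl1 cells and 0.724 CPM in Angpt4-only cells (5.70 ± 0.84). The receptor gene Calcrl averaged 114 and 4.41 CPM (4.79), and Ptgs2 741 and 82.0 CPM (4.44 ± 2.05). In the opposite direction the oestrogen receptor Gper1 averaged 104 CPM in Rarres1 or Myl1 cells and 771 CPM in Angpt4-only cells (-4.55 ± 3.58). Rgs5 did not follow this split. Its median was 2145 CPM in cells with Rarres1 alone, 2716 CPM with Rarres1 and Myl1 and 3479 CPM with all 3 genes, but 417 CPM with Rarres1 and Angpt4, 408 CPM with Myl1 alone, 104 CPM with Myl1 and Angpt4, and 202 CPM with Angpt4 alone.

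Because Cnn1 was read more often in members, they were also compared with the 523 other cells that held a Cnn1 read and with the 560 that held none. Against the Cnn1-positive cells 188 of 9740 genes were higher (1.93%) and 335 lower (3.44%). Gdf10 (4.63), Timp4 (3.57), Ptgs2 (2.87), Lxn (2.69), Igfbp5 (2.65) and Id2 (1.84) still met the rule, as did Car4 (-3.23), Vtn (-2.18), Higd1b (-2.74) and Ackr3 (-2.63). Kcnj8 (-2.50), Ano1 (-0.98) and Rgs4 (-0.95) no longer did. Notch3 also met it here, at 172 CPM in members and 87.7 CPM in Cnn1-positive cells (1.05). Against Cnn1-free cells 303 of 9858 genes were higher (3.07%) and 612 lower (6.21%), with Timp4 at 5.42, Car4 at -7.10 and Vtn at -3.52.

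The 84 Acta2 cells with at least 50 CPM of Pappa2 and Dmp1, which the rule keeps out, were the other group set beside the members. Of these cells 3 (3.57%) reached 50 CPM of Rarres1, Myl1 and Angpt4. Members had 549 of 10199 genes higher (5.38%) and 488 lower (4.78%). Cnn1 averaged 600 CPM in members and 121 CPM in Pappa2 or Dmp1 cells (4.09), and Igfbp5 (5.08), Enpp2 (4.96), Nov (4.94), Timp4 (4.92), Atoh8 (4.36), Gdf10 (4.04) and Id2 (3.69) were higher in members. Col4a3 was lower, at 15.0 CPM in members and 223 CPM in Pappa2 or Dmp1 cells (-3.50). Notch3 met the rule in this comparison as well (1.03), and Vtn stood at -0.11.

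The share of members among smooth muscle cells overlapped between KO and WT plates. Members made up 12.2%, 4.44% and 15.9% of the smooth muscle cells of KO plates 043, 467 and 471 (32, 10 and 46 cells), with exact binomial (Clopper-Pearson) 95% intervals of 8.47 to 16.7%, 2.15 to 8.02% and 11.9 to 20.6%. On WT plates 044, 468 and 469 they made up 10.2%, 3.13% and 8.62% (35, 1 and 5 cells), with intervals of 7.19 to 13.9%, 0.0791 to 16.2% and 2.86 to 19.0%. These intervals cover counting error only. The means over plates were 10.8 ± 5.83% for KO and 7.31 ± 3.70% for WT (SD, 3 plates each), a difference of 3.52 percentage points that was smaller than the SD over KO plates. The WT mean gives equal weight to plates of 344, 32 and 58 smooth muscle cells. Pooled over plates, members were 88 of 778 smooth muscle cells (11.3%) for KO and 41 of 434 (9.45%) for WT. KO plate 467 was low and KO plates 043 and 471 were above all WT plates. Without plate 467 the KO mean was 14.0%, without plate 471 it was 8.31%, and without WT plate 468 the WT mean was 9.40%. The earlier-numbered plates alone gave 12.2% for KO and 10.2% for WT, and the later-numbered plates means of 10.2% and 5.87%.

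**Figure D4:**
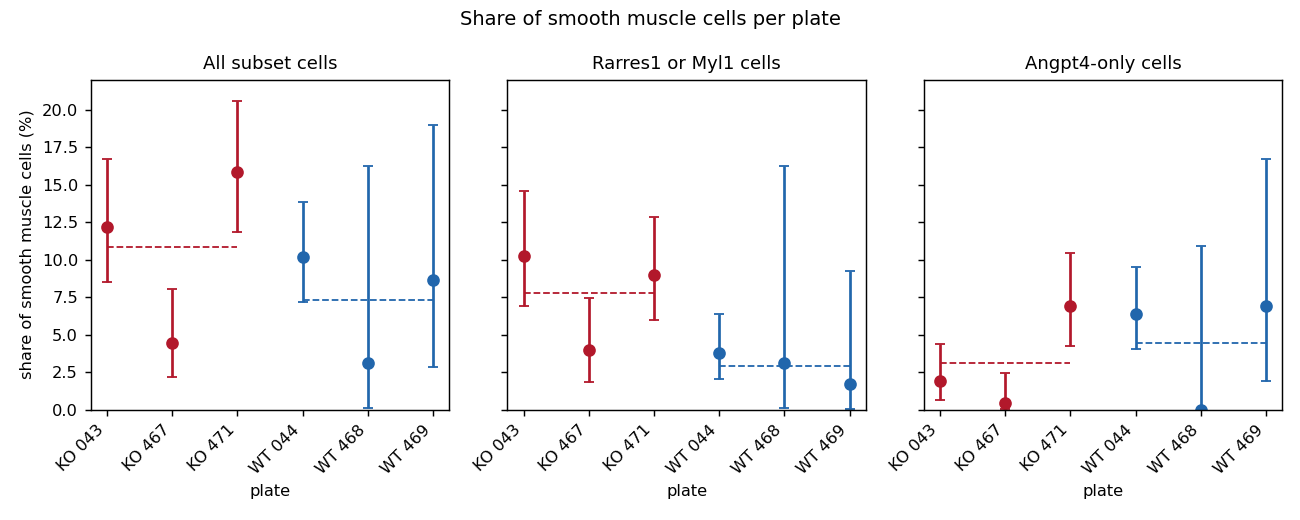
Share of smooth muscle cells (%) on each plate that are subset cells, Rarres1 or Myl1 cells, or Angpt4-only cells; bars are exact binomial 95% intervals, which cover counting error only, and dashed lines are means over plates. In the middle panel the KO plates (4.00% to 10.3%) all lie above the WT plates (1.72% to 3.78%), while the plates overlap in the other panels.

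The 2 kinds of member are given separately. Rarres1 or Myl1 cells made up 10.3%, 4.00% and 8.97% on the KO plates (62 cells, mean 7.74 ± 3.31%), against 3.78%, 3.13% and 1.72% on the WT plates (15 cells, mean 2.88 ± 1.05%). The plates did not overlap, but the lowest KO plate and the highest WT plate were 4.00% and 3.78%, well within their counting intervals of 1.85 to 7.46% and 2.03 to 6.38%. Angpt4-only cells made up 1.90%, 0.444% and 6.90% on the KO plates (26 cells, mean 3.08 ± 3.38%), against 6.40%, 0% and 6.90% on the WT plates (26 cells, mean 4.43 ± 3.85%), and overlapped.

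The plates were farther apart for Rarres1. Cells with at least 50 CPM of Rarres1 made up 8.37%, 3.56% and 5.86% on the KO plates (47 cells, mean 5.93 ± 2.41%), against 1.45%, 0% and 0% on the WT plates (5 cells, mean 0.484 ± 0.839%). A count of 0 allowed up to 9.38% on WT plate 468 and 5.17% on WT plate 469, and the exact binomial 95% intervals reached 10.9% and 6.16%. These exact limits lie above the shares of KO plates 467 and 471 on both WT plates. Myl1 at 50 CPM was in 3.80%, 1.78% and 6.90% on the KO plates and in 2.62%, 3.13% and 1.72% on the WT plates, which overlapped. Rarres1 cells remained apart between KO and WT plates among cells with at least 150000 counts (3.81% or more against 1.52% or less) and after thinning to 50000 counts (3.56% or more against 1.45% or less). Members with Ptgs2 at 50 CPM numbered 10, 2 and 18 of 32, 10 and 46 members on the KO plates. On the WT plates they numbered 1, 0 and 0 of 35, 1 and 5 members. Those with Gdf10 numbered 16, 4 and 12, against 5, 0 and 0. For both genes the 0 counts of WT plates 468 and 469 allow up to 10.9% and 6.16% of smooth muscle cells by the exact intervals.

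The share of Rarres1 or Myl1 cells was also taken within levels of Cnn1. Among smooth muscle cells with at least 50 CPM of Cnn1 it was 15.0%, 13.3% and 14.5% on the KO plates, against 5.61%, 7.14% and 0% on the WT plates, without overlap. These WT shares are 11 of 196, 1 of 14 and 0 of 24 cells on plates 044, 468 and 469. So few cells leave the shares of plates 468 and 469 uncertain, and no interval was taken. Among cells below that level it was 6.67%, 0.606% and 5.20% on the KO plates, against 1.35%, 0% and 2.94% on the WT plates, with overlap. On the low plate 467, 8 of its 9 Rarres1 or Myl1 cells thus lay among the 60 cells with Cnn1.

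Within the subset, KO members were compared with WT members of plate 044 (35 cells) and with those of plates 468 and 469 summed (6 cells). Of 9875 genes, 1055 were at least 2-fold higher in KO without overlap (10.7%) and 510 lower (5.16%); in the other smooth muscle cells of all 6 plates these were 274 (2.82%) and 80 (0.824%) of 9706. Members give 3 KO values against 2 WT values and other cells 3 against 3, and fewer values overlap less often, so the shares of the 2 comparisons are not comparable. The makeup of the groups moves with this comparison, since 26 of 88 KO members and 26 of 41 WT members were Angpt4-only, and its part in the values was not tested. Notch3 stood at 94.8, 187 and 195 CPM in KO members and at 213 and 812 CPM in WT members, a difference of -1.46, against -2.66 in other cells.

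Rarres1 stood at 195, 328 and 139 CPM in KO members, against 66.7 and 0 CPM in WT members (4.66), levels that the rule itself acts on. Lxn stood at 399, 270 and 334 CPM in KO members and 82.9 and 0.924 CPM in WT members (4.70, against 0.79 in other cells). Id2 stood at 351, 531 and 574 CPM in KO members and 192 and 67.0 CPM in WT members (2.06, against -0.36 in other cells). Pla2g4a (4.12, against -0.04) and Col18a1 (1.35, against -0.17) also met the rule in members, while Col6a1 met it in members (5.29) and in other cells (5.00), as did Enpp2 (4.48 and 3.19). The difference between members and other cells was not tested for any of these genes.

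Several leading genes of the subset did not separate KO from WT members. Myl1 stood at 33.2, 104 and 114 CPM in KO members and 39.8 and 65.6 CPM in WT members (0.51), and Angpt4 at 141, 202 and 226 CPM and 188 and 345 CPM (-0.45). Igfbp5 (0.64) and Timp4 (1.13) overlapped. Ptgs2 was at 708, 42.0 and 807 CPM in KO members and 56.2 and 0 CPM in WT members; low plate 467 overlapped with WT plate 044. In the opposite direction Ackr3 was lower in KO members, at 75.3, 9.70 and 90.8 CPM, against 239 and 582 CPM in WT members (-3.15, against -0.33 in other cells). Car4 was lower in KO members (-5.34) and higher in KO among other cells (1.69), the WT value of plates 468 and 469 resting on the single cell of plate 469.

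The content of the Rarres1 or Myl1 cells is given by genotype. Lxn reached 50 CPM in 50 of 62 KO cells of this kind (80.6%) and in 3 of 15 WT cells (20.0%), Id2 in 52 (83.9%) and 4 (26.7%), Gdf10 in 31 (50.0%) and 2 (13.3%), and Ptgs2 in 26 (41.9%) and 1 (6.67%). Cnn1 did so in 42 (67.7%) and 12 (80.0%). In Angpt4-only cells Id2 reached 50 CPM in 17 of 26 KO cells (65.4%) and 14 of 26 WT cells (53.8%). The WT cells of the first kind were mostly Myl1 cells, with 10 of 15 holding Myl1 alone, whereas 25 of the 62 KO cells held Rarres1 alone and 9 Myl1 alone. All but 2 of the WT cells of this kind came from plate 044, where Notch3 was closer to the KO level. Against the 13 WT cells of plate 044 alone, 2142 of 9874 genes were at least 2-fold higher in KO Rarres1 or Myl1 cells without overlap (21.7%) and 1524 lower (15.4%). A single WT plate overlaps with the KO plates less often by construction, so these shares are not comparable with those of all members.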

How the data were processed

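The authors deposited raw counts of reads, per gene symbol, for 2254 cells on 6 plates, with 0 columns left unused. Per the submitters' processing notes, TopHat2 2.1.1, SAMtools 0.1.18 and featureCounts from Subread 1.4.6-p5 were used on GRCm38 (mm10). For the annotation, strandedness and cell filtering, the authors' choices are not given in the sources used here. Of 30950 table symbols, 27956 (90.3%) matched GENCODE M21, which gave positions and exon overlaps; promoters came from RefSeq.

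CPM is a count over the cell's total, or summed counts over summed totals. Kept cells had at least 50000 counts. No 2 cell columns were identical, and no doublet caller was run, as each well was meant to hold a single cell. Differences are of log2(CPM + 1), taken within plates (Python 3.11.15, numpy 2.4.6, pandas 2.3.3); the pseudocount of 1 CPM understates the change of low genes. For KO against WT, the size rule asked for a 2-fold difference and no overlap of plates in place of equal signs. Other cells were to be split at their median Cnn1, which was 0 CPM, so the split is between cells with a Cnn1 read and cells without. Thinning drew 50000 counts per cell. No test was run, because the members were chosen from these counts and no animal was named. Without molecular identifiers, reads are not independent molecules. A count of 0 cells was taken to allow up to 3 cells of the total. The scripts were checked on simulated data.

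Named genes are those of the rule, the 5 leading genes, Notch3, the 15 largest and 15 smallest differences that met the size rule with a read in at least 25% of the higher group's cells, and up to 4 genes of each list that met the rule, or the 2 largest where none did. Other genes were chosen after their values were seen. Some genes are not reported here and were left out of the lists; counts over all genes include them. The members, gene lists and rules were chosen with earlier results of these data known, and a list is described by its counts beside the median over all genes. Alternatives were another pseudocount, other filters, other rule limits, TMM scaling (edgeR 4.0.16 in R 4.3.3), means over cells, each plate left out, and the kinds of member taken separately. The last was added after seeing the data, as were the other cells that passed the members' limits.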

Additional observations from a re-analysis of the deposited data

Results flagged for a closer look

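For Xirp1 and Hey1, every KO plate had a higher level in members than in other smooth muscle cells and WT plate 044 did not. Xirp1, a muscle actin-binding protein gene, had a mean log2 difference of 1.18 over the KO plates and -0.016 on WT plate 044. Hey1, a Notch target gene, had 1.20 over the KO plates and -0.092 on WT plate 044. The WT side is a single plate and the difference between genotypes was not tested.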

How the results depend on the processing

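The KO minus WT difference in the share of members stayed within 1 SD over plates (4.88 percentage points) of 3.52 percentage points under every alternative run. This SD is larger than the difference itself, so staying within it does not show stability. The difference kept its sign in all but Angpt4-only cells (-1.35). It was 1.00 to 6.71 percentage points when each plate was left out, with 1.00 without KO plate 471 and 1.43 without WT plate 468. Without KO plate 467 the plates no longer overlapped (14.0% for KO and 7.31% for WT). The count of genes that met the size rule in members against other cells, 622 (162 higher and 460 lower), changed with the settings. It was 293 (100 and 193) with a pseudocount of 10 CPM, 228 (93 and 135) at 50 CPM or more, and 1476 (1284 lower) with no filter on low values. Means over cells gave 352 higher and 124 lower. Leaving out each plate gave 629 to 1103 genes (203 to 289 higher, 426 to 814 lower), with 963 (757 lower) without KO plate 043 and 1103 without WT plate 044; fewer plates make equal signs easier. With plates of 5 or more members 64 genes were higher. Members with at least 2 of the 3 genes left only plate 471 and gave 3248 (1125 and 2123), and Angpt4-only cells gave 1513 (1330 lower). Leaving out cells high in markers of another type removed 17 members and all plates but 043, 471 and 044, and gave 691.

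Efnb2 turned to -0.056 with plates of 5 or more members. In Angpt4-only cells Rarres1 (-0.52) and Myl1 (-0.14), both fixed by the choice of cells, Ptgs2 (-0.79), Pla2g4a (-0.22), Smad6 (-0.12), Postn (-0.11), Gata6 (-0.20) and Efnb2 (-1.25) turned negative; the cause was not tested. Over the named genes and all alternatives, 1069 differences stayed within 1 SD of the plates, 138 moved further and 9 turned.

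Between KO and WT members the count of 1565 genes became 2110 to 5562 when plates were left out (5562 without WT plate 044, which leaves 6 WT cells, and 2432 without WT plates 468 and 469), 2917 on the earlier-numbered plates and 3666 in Rarres1 or Myl1 cells; with fewer plates, groups overlap less often. In other smooth muscle cells the count of 354 became 371 to 1075, with 581 without KO plate 043, 1075 without WT plate 044 and 554 without WT plate 469. No paired analysis was possible because plates carry no shared replicate number and no animal was named. The number of cells limits the WT side, since plates 468 and 469 held 6 members.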

Other observations

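Rarres1 was not confined to mural cells. Of 172 kept cells with at least 50 CPM of Rarres1, Myl1 and Angpt4 summed, 38 had under 1000 CPM of Acta2, and 36 of these held at least 50 CPM of Rarres1, against 1 with Myl1 and 1 with Angpt4. The marker list with the highest level was astrocyte in 22 of the 38 cells, fibroblast in 13, endothelial in 2 and leptomeningeal in 1. Cells with at least 50 CPM of Rarres1 and under 1000 CPM of Acta2 numbered 3, 2 and 4 on KO plates 043, 467 and 471. On WT plates 044, 468 and 469 they numbered 1, 14 and 12. Most kept cells of WT plates 468 and 469 were not smooth muscle. Of the 38 cells, 4 held Ptgs2 and 7 held Gdf10 at 50 CPM.

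The table also lists GFP, which no label mentions as a reporter. It held 1 read in all cells, in a KO member.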
